A study of Mus musculus with 7 samples.

Results

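The genes of lipid droplet coats and cytosolic lipases were followed in duodenal RNA of male mice, 3 Ppara lox/lox controls and 4 Ppara I-KO mice. Members were the table rows named Plin2, Plin3, Plin4, Plin5, Cideb, Cidec, Pnpla2, Abhd5, Mgll or Hilpda, and 9 of these 10 symbols were found among 14795 genes. All 9 passed the filter on low values, a value above 1 CPM (reads of a gene scaled to the size of the library) in at least 3 libraries, which 13399 genes passed. Plin5 was not analysed here.

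The labels give C57BL/6 as the strain, and the methods call the background predominantly C57BL6/J. Both groups carried 2 floxed Ppara alleles. The I-KO mice also carried Villin-Cre, a transgene expressed in the intestinal epithelium, and the controls were littermates without Cre. By the labels, food was withheld for 6 h and given back for the last 6 h, and the methods give HFD for these duodena. The labels state neither the diet nor the age. The RNA came from whole duodenum, so muscle, vessels and immune cells, in which Villin-Cre is not active, contribute to every value.

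Absorbed fatty acids and monoacylglycerols are re-esterified in enterocytes, and the triglyceride is either packed into chylomicrons or held for a time in cytosolic lipid droplets (LDs). A droplet is a core of neutral lipid under a single layer of phospholipid, to which perilipins and Cide proteins bind. Stored triglyceride is released stepwise, first by the lipase ATGL (Pnpla2) with its activator CGI-58 (Abhd5), and last by monoacylglycerol lipase (Mgll), which frees the remaining fatty acid. PPARα is a nuclear receptor for fatty acids, and Plin2 is one of its known targets. It binds DNA with RXR at a direct repeat of the hexamer AGGTCA with a spacer of 1 base, called DR1.

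The 250 bases before the start of Plin2, Pnpla2 and Hilpda are shown because these genes had the smallest p-values among the members. They were taken from RefSeq (GRCm38.p6), whose table matched all 10 symbols in 14 windows, and each is written 5′ to 3′ on the strand of the gene. Capitals mark the stretch closest to DR1 in Plin2 and the GC box GGGCGG, on either strand, in the others.
Plin2, chr4:86670060-86670309, minus strand: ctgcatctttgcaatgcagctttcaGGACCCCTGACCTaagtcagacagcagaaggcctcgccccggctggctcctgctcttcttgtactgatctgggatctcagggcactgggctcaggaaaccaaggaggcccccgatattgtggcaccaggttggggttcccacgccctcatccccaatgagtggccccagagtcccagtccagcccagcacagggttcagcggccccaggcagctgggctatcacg
Pnpla2, chr7:141454938-141455187, plus strand: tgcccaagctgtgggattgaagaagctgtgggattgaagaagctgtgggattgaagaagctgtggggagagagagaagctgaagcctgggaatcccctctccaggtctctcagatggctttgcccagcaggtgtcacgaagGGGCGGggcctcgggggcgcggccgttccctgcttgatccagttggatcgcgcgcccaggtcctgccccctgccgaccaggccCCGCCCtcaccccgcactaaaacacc
Hilpda, chr6:29272238-29272487, plus strand: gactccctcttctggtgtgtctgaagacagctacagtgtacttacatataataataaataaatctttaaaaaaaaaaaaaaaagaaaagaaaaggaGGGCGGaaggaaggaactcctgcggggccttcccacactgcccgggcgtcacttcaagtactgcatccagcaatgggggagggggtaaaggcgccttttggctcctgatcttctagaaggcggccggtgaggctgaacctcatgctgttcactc
The full DR1, AGGTCANAGGTCA, was in no window of the members on either strand, and in 0.0335% of 32851 windows of this length from all genes. The closest stretch of Plin2, GGACCCCTGACCT, had its first base at -225 from the start and differed from DR1 on the minus strand at 2 of the 12 fixed letters, and 3.24% of all windows were as close. It contains the hexamer AGGTCA, which is part of DR1. On its own this hexamer was in 14.0% of windows, and among the members in Plin2, Plin5 and Abhd5. The closest stretches in Plin3, Plin5 and Cidec differed from DR1 at 3 letters, and 21.3% of windows were as close or closer. The closest stretch in Pnpla2 differed at 5 letters and that in Hilpda at 4, and 99.6% and 74.5% of windows were as close or closer. The GC box was in 32.7% of windows, and among the members in Plin3, Plin5, Cideb, Pnpla2, Abhd5, Mgll and Hilpda. A later start of Hilpda, which is not printed, had the core ACGTG of the hypoxia response element at -43, a core that 16.6% of windows had somewhere. Among the members Mgll had this core too. These matches describe letters only, and binding was not measured.

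The libraries held between 20745083 and 25894673 reads on the listed genes, as derived from the value of 1 read. Ppara itself had 53.4, 49.3 and 63.2 CPM in the controls and 33.1, 40.6, 47.5 and 69.9 CPM in I-KO libraries, with a log2 fold change of -0.25 and a standard error of 0.22 (limma, adjusted p = 0.954). The library labelled I-KO 4 lay above every control for Ppara, and without it the log2 fold change was -0.45 (limma, unadjusted p = 0.0152, adjusted p = 0.70). Without I-KO 1 the value was -0.099 and without lox/lox 3 it was -0.16. A gene total of Ppara does not check the deletion of the floxed part. I-KO 1 stood apart in 15 pancreatic acinar genes, which summed to 435 CPM there, 98.3 CPM in lox/lox 2 and at most 42.7 CPM in the others. The 10 enterocyte markers summed to between 54814 and 72085 CPM over all libraries, so enterocyte transcripts were abundant in each. Among the other marker lists, the 9 muscle genes summed to 1084 to 1334 CPM in controls and 1116 to 1621 CPM in I-KO, and the 6 endothelial genes to 90.7 to 109 CPM and 103 to 138 CPM. In no marker list did a gene pass the adjusted test of limma. At an unadjusted p of 0.05 the calls were Tek among endothelial genes and Pparg among adipocyte genes, both higher in I-KO, and Cd163 among macrophage genes and Fabp1 among enterocyte genes, both lower. Most genes of 3 of these lists went the other way from the called gene. In I-KO 7 macrophage genes were higher and 1 lower (median log2 fold change 0.176), and 8 enterocyte genes higher and 2 lower (0.129). Of the adipocyte genes tested 2 were higher and 4 lower (-0.030). All 6 endothelial genes were higher (0.142). None were called among the 8 muscle and 4 acinar genes that could be tested. Over all genes tested 2.32% were called higher and 2.42% lower at that unadjusted p.

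Transcript levels were first compared between genes per kb of exon, using all annotated exons of GENCODE M21 on GRCm38. Cideb was highest, with 214 ± 19.1 CPM per kb (SD, n = 3) in lox/lox duodena, followed by Plin3 with 133 ± 13.8 and Cidec with 61.8 ± 5.78 CPM per kb. Pnpla2 came next with 39.1 ± 1.63 and Plin2 with 30.9 ± 2.76 CPM per kb. So the coat genes Cideb and Plin3 each had a higher level per length than Plin2 in the controls, and no library of the one overlapped a library of the other. Abhd5 had 5.53 ± 1.08 and Mgll 4.61 ± 0.455 CPM per kb, and the ranges of these neighbours overlapped. Hilpda with 1.73 ± 0.111 and Plin4 with 1.23 ± 0.224 CPM per kb closed the order. The order of the means was the same in I-KO duodena, where Abhd5 and Mgll were again the neighbours with overlapping ranges.

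**Figure D1:**
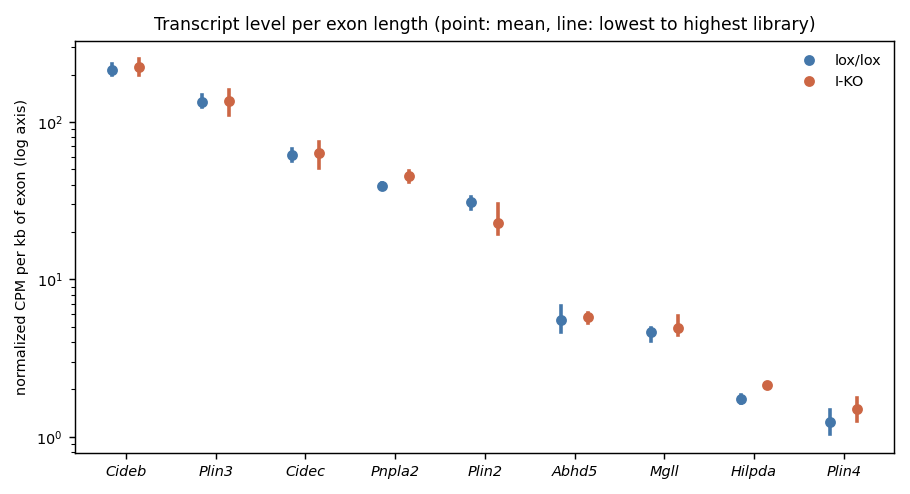
Normalized CPM per kb of exon on a log axis for the 9 genes, ordered by the lox/lox mean, where points are means and lines run from the lowest to the highest library of 3 lox/lox (blue) or 4 I-KO (orange) mice. Cideb (214 CPM per kb in lox/lox) was at the top and Plin4 (1.23 CPM per kb) at the bottom in both groups.

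The comparison of Ppara I-KO with lox/lox asks which droplet genes depend on epithelial PPARα under fat-rich feeding. None of the 9 members passed limma's test over all genes (smallest adjusted p = 0.954), in a comparison that called 0.0299% of the 13399 genes, 0.0224% higher and 0.00746% lower. At an unadjusted p of 0.05 by limma 3 members were called, Plin2 lower and Pnpla2 and Hilpda higher in I-KO, against 4.74% of all genes, 2.32% higher and 2.42% lower. Groups did not overlap for 2 members, Pnpla2 and Hilpda, against 6.19% of all genes. The members' median log2 fold change was 0.080, beside 0.0017 over all genes tested, and 8 of the 9 values were above 0. This median was 0.013 without I-KO 1, where 5 of the 9 values were above 0, 0.021 without lox/lox 3, 0.051 without lox/lox 2 and 0.137 without lox/lox 1, and 0.044 with column totals, where 6 of the 9 were above 0. With column totals the median over all genes tested was lower too, at -0.0325. Single libraries decided some of these calls, as given for each gene.

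**Figure D2:**
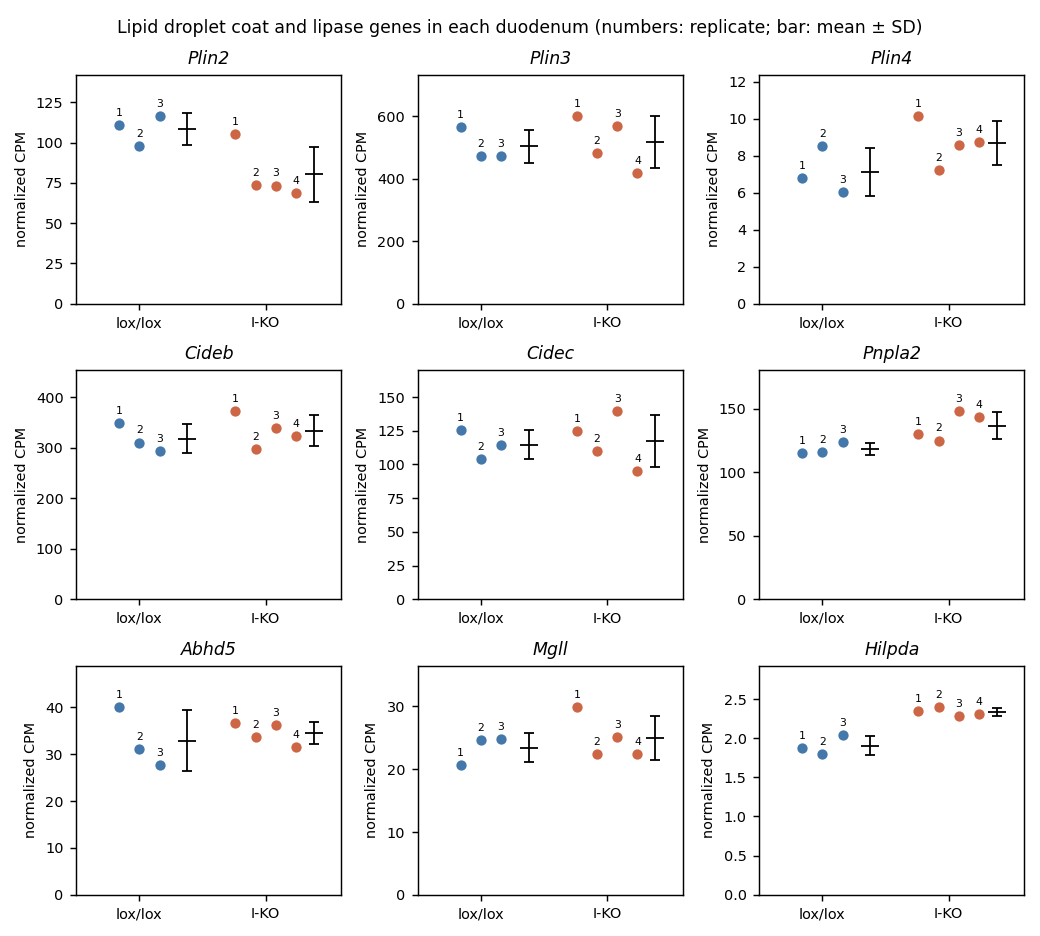
Normalized CPM (linear axes from 0) of each gene in the 3 lox/lox (blue) and 4 I-KO (orange) duodena, with the replicate number above each point and the mean ± SD as a bar. Plin2 in I-KO 1 (106 CPM) sits among the controls while the other I-KO mice sit at 68.6 to 73.7 CPM, and all I-KO points of Pnpla2 and Hilpda lie above the controls.

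Among the perilipins, Plin2 encodes the coat protein that surrounds cytosolic LDs in most tissues and is degraded when not bound to lipid. Its gene lies on chromosome 4 of GRCm38 from 86648386 to 86670060. The control mice 1, 2 and 3 gave 111, 97.8 and 117 CPM for Plin2, and the I-KO mice 1 to 4 gave 106, 73.7, 73.4 and 68.6 CPM. Of the I-KO libraries 3 were below all controls and I-KO 1 was between controls 2 and 1, so the groups overlapped. The log2 fold change was -0.45 (standard error 0.15), with a 95% confidence interval from -0.78 to -0.11, or 58.1% to 92.9% of the lox/lox level. Limma gave an unadjusted p of 0.0156 and an adjusted p of 0.954 (0.313 to 0.9997 over the alternatives). An exact two-sided permutation test over the 35 splits of the mice gave p = 0.0857, where 0.0286 is the smallest p possible. The unadjusted p of limma was under 0.05 in 15 of 16 alternatives. Leaving out I-KO 1 gave -0.58 with an adjusted p of 0.313 by limma, and leaving out lox/lox 3 gave -0.39 with an unadjusted p of 0.0564. The 8 macrophage markers, a cell type that also uses Plin2, summed to between 269 and 375 CPM in controls and between 339 and 426 CPM in I-KO libraries, the highest in I-KO 1. Of these markers Lyz2, Csf1r, C1qa and C1qb were highest in I-KO 1, while Cd68, Emr1, Mrc1 and Cd163 were not. The muscle and endothelial sums were also highest in I-KO 1, and the part of these cells in its Plin2 value was not tested. In bulk tissue, fewer cells of a type and less RNA per cell cannot be told apart.

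Plin3, once known as TIP47, coats nascent LDs and is present in the cytosol when no lipid is stored. It lies on chromosome 17 from 56277476 to 56292873. Its level was 565, 474 and 474 CPM in the controls and 601, 482, 568 and 420 CPM in I-KO mice. The I-KO values spanned those of the controls on both sides. The log2 fold change of 0.029 had a 95% confidence interval from -0.28 to 0.34 (adjusted p = 0.991 from limma, exact two-sided permutation p = 0.8). Its sign turned with column totals as the scaling (-0.0085), and when I-KO 1 (-0.048), I-KO 3 (-0.021), lox/lox 2 or lox/lox 3 (-0.013 each) was left out.

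Plin4, a perilipin with many repeats of a helical segment and known from adipocytes and muscle, was the weakest member per length. It is also on chromosome 17, from 56100591 to 56109803, where 1797 bases separate it from Plin5 and a further 159879 bases separate Plin5 from Plin3. Controls had 6.81, 8.54 and 6.01 CPM of Plin4 and I-KO mice 10.2, 7.23, 8.58 and 8.76 CPM. Of the I-KO libraries 3 were above all controls, while I-KO 2 lay between controls 1 and 2. Limma gave 0.26 on the log2 scale (standard error 0.13) with an unadjusted p of 0.0869 and an adjusted p of 0.954, and an exact two-sided permutation test gave p = 0.143. Each value rested on 138 to 212 reads, a counting SD of 0.557 CPM in controls and 0.627 CPM in I-KO, less than the SD between mice of 1.29 and 1.19 CPM. The log2 fold change of Plin4 was 0.38 without lox/lox 2 (limma, unadjusted p = 0.0228) and 0.33 without I-KO 2 (unadjusted p = 0.0369). It was 0.16 without lox/lox 3 (unadjusted p = 0.303), 0.19 without I-KO 1 (unadjusted p = 0.196) and 0.086 with sample quality weights (unadjusted p = 0.529). Plin4 overlaps Hdgfl2 on the opposite strand (Hdgfrp2 in the table), and because the strand setting of the counting is not given in the sources used here, reads of both genes cannot be told apart in the overlap.

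The adipocyte markers bear on Plin4 and Cidec, since both genes are strongly expressed in fat cells. Of 10 listed markers 9 were in the table, and 3 of these never exceeded 1 CPM. The defining markers Adipoq and Plin1 reached at most 2.10 and 0.54 CPM, and both were present at above 0 in every library. Adipoq was highest in lox/lox 2 (2.10 CPM) and next in I-KO 4 (1.57 CPM), and Plin1 was highest in I-KO 4. The whole list summed to between 232 and 257 CPM in controls and between 221 and 287 CPM in I-KO libraries, most of it from Lipe, which the duodenum also expresses. Cidec, at 94.9 CPM or more, was above Adipoq and Plin1 in every library. Plin4 was above both in every library too. The part of fat tissue in the values of Cidec and Plin4 was not tested.

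Cide proteins sit where droplets touch and let lipid pass from smaller to larger ones. Cideb, which is also needed for full lipidation of lipoproteins in liver and intestine, lies on chromosome 14 from 55754050 to 55758458. Controls had 350, 310 and 294 CPM of Cideb and I-KO mice 372, 298, 340 and 324 CPM. The groups overlapped, and the log2 fold change of 0.067 had a 95% confidence interval from -0.16 to 0.30 (adjusted p = 0.971 from limma). Cideb overlaps Nop9 on the opposite strand, which had a mean of 27.9 CPM in lox/lox duodena and 25.2 CPM in those of I-KO mice.

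Cidec, also called Fsp27, the member of the family best known for large droplets, lies on chromosome 6 from 113424634 to 113435760. Its values were 126, 104 and 114 CPM in controls and 125, 110, 139 and 94.9 CPM in I-KO mice. I-KO 3 was above all controls and I-KO 4 below them. On the log2 scale the change of Cidec was 0.021 with a 95% confidence interval from -0.29 to 0.33 (adjusted p = 0.996 from limma), and its sign turned with column totals (-0.016) and when I-KO 1 (-0.014), I-KO 3 (-0.066) or lox/lox 2 (-0.046) was left out. For both Cide genes the difference between the groups was smaller than the SD between mice.

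Pnpla2 encodes ATGL, which removes the first fatty acid from stored triglyceride. It lies on chromosome 7 from 141455198 to 141460743. The levels were 115, 116 and 124 CPM in controls and 130, 125, 148 and 144 CPM in I-KO mice. All 4 I-KO libraries were above all controls, the nearest being I-KO 2 at 125 and control 3 at 124 CPM. Among all genes tested 2.91% were higher in I-KO without overlap. The difference on the log2 scale was 0.21 (standard error 0.09), with a 95% confidence interval of 0.0055 to 0.41, an unadjusted p of 0.0452 and an adjusted p of 0.954 by limma. An exact two-sided permutation test gave p = 0.0571. The unadjusted p of limma was under 0.05 in 9 of 16 alternatives. It was 0.125 with column totals and 0.0812 with the replicate block. It was 0.121, 0.122 and 0.0509 without lox/lox 1, 2 and 3, and 0.102 and 0.0928 without I-KO 3 and 4.

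Abhd5, the activator that ATGL needs for full activity and that perilipins hold back on the droplet, lies on chromosome 9 from 122351608 to 122381524. It had 40.1, 31.0 and 27.7 CPM in controls and 36.6, 33.6, 36.2 and 31.6 CPM in I-KO mice. Every I-KO value lay inside the range of the controls, whose SD was 6.43 CPM around a mean of 32.9 CPM. On the log2 scale Abhd5 differed by 0.080 (limma, 95% confidence interval -0.21 to 0.37, adjusted p = 0.971), and by -0.033 when lox/lox 3 was left out.

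Hilpda is a small protein induced by fatty acids and by hypoxia that inhibits ATGL. It lies on chromosome 6 from 29272488 to 29275446. Its values were low, at 1.88, 1.80 and 2.04 CPM in controls and 2.35, 2.40, 2.28 and 2.31 CPM in I-KO mice. The groups did not overlap. With 38 to 61 reads per library the exact Poisson 95% intervals were wide, reaching from 1.53 to 2.68 CPM for control 3 and from 1.65 to 3.07 CPM for I-KO 3, so single libraries of the 2 groups overlapped within counting error. The SD between the I-KO mice, 0.052 CPM, was smaller than the counting SD of 0.325 CPM that such read numbers carry. Limma gave 0.20 on the log2 scale (standard error 0.07, 95% confidence interval 0.03 to 0.37) with an unadjusted p of 0.0249 and an adjusted p of 0.954 by limma. An exact two-sided permutation test gave p = 0.0286, the smallest the design allows. The unadjusted p of limma was under 0.05 in 8 of 15 alternatives. It was 0.0801 with column totals, 0.0857 with an intensity trend, 0.092 with that trend and a robust fit, and 0.0621 with the replicate block. It was 0.0697 and 0.10 without lox/lox 1 and 2, and 0.0605 without I-KO 2.

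Mgll, on chromosome 6 from 88724412 to 88828360, ends the hydrolysis of triglyceride and also degrades the endocannabinoid 2-arachidonoylglycerol. Controls had 20.7, 24.7 and 24.8 CPM and I-KO mice 29.9, 22.5, 25.2 and 22.4 CPM. I-KO 1 was highest and the other I-KO values lay within or just above the controls. Mgll differed by 0.086 on the log2 scale (95% confidence interval -0.19 to 0.36, adjusted p = 0.971 from limma), and -0.0015 without I-KO 1.

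**Figure D3:**
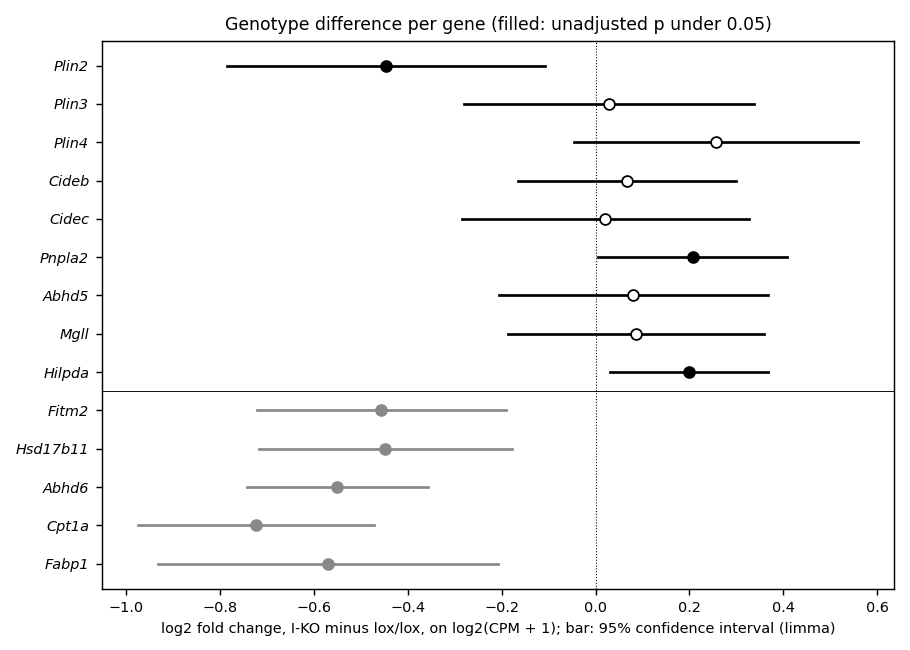
Log2 fold change (I-KO minus lox/lox, on log2(CPM + 1)) with its 95% confidence interval from limma, for the 9 genes (black), filled where the unadjusted p was under 0.05. Grey marks the 5 genes of the droplet and lipase lists that were picked because their unadjusted p was under 0.05. Plin2 (-0.45) lies below 0, and Pnpla2 (0.21) and Hilpda (0.20) lie above it. The picked grey genes were all lower (-0.45 to -0.72). Of all genes tested, the droplet list had 10 higher and 9 lower, and the lipase list 4 higher and 15 lower.

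Plin2 was then set against each other member inside the same library, a comparison chosen after the values were seen. The ratio of Plin2 to Plin3 was 0.197, 0.206 and 0.246 in controls and 0.176, 0.153, 0.129 and 0.164 in I-KO mice. I-KO 1 also lay below every control. In that library Plin3 (601 CPM) was above all controls and Plin2 (106 CPM) was between controls 2 and 1. The ratio of Plin2 to Pnpla2 was 0.966, 0.846 and 0.943 in controls and 0.811, 0.590, 0.496 and 0.478 in I-KO mice. For 7 of the 8 members the ratio was lower in all I-KO than in all control libraries, the exception being Abhd5. The exact two-sided permutation p was 0.0286 for the ratios to Plin3, Plin4 and Mgll, 0.0571 for those to Cideb, Cidec, Pnpla2 and Hilpda, and 0.0857 for that to Abhd5, with no adjustment for the choice after the values were seen. These ratios share Plin2 and are not independent, and the same held for 27.0% of 13393 genes set under Plin2 in this way.

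**Figure D4:**
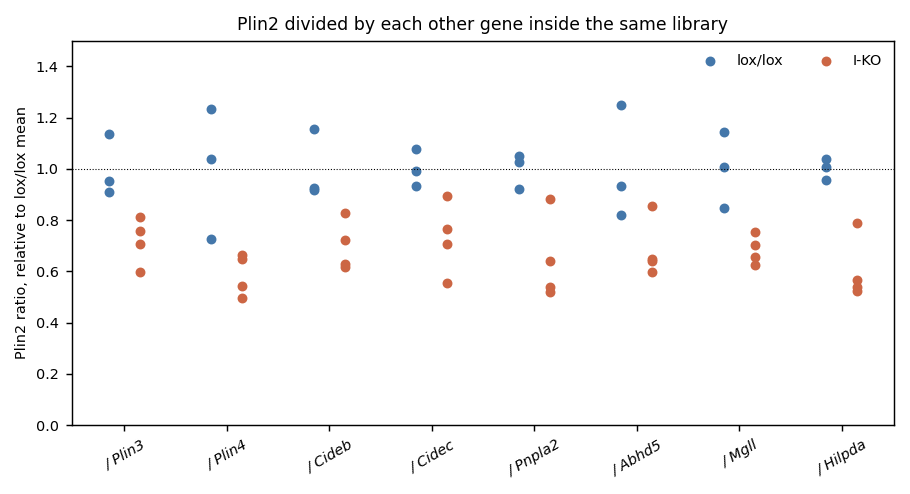
Plin2 divided by each other gene within a library, relative to the mean of the 3 lox/lox libraries (linear axis from 0, blue lox/lox, orange I-KO). The I-KO points lie below all lox/lox points in every column except that of Abhd5.

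Libraries also differed within a group in an order that several members shared, which was noticed after the values were seen. Plin3, Cideb, Cidec and Abhd5 were highest in lox/lox 1 among controls, and in I-KO 1 and 3 among the I-KO mice. Of all genes tested 10.3% had this order. Of the 10 enterocyte markers 3 had it, Apoa1, Treh and Vil1, while Sis was lowest in I-KO 1. Their sum had it as well, with 64943 CPM in lox/lox 1, and 71373 and 72085 CPM in I-KO 1 and 3 against 54983 and 58230 CPM in I-KO 2 and 4, but Apoa1 and Apoa4 made up 62.2% to 70.5% of that sum. The column totals themselves had this order, with 1045790 in lox/lox 1, the highest of the controls. They were 1028916 and 1098618 in I-KO 1 and 3 against 1016832 and 973413 in I-KO 2 and 4. With the column totals as scaling, Plin3 and Cidec kept the order, beside 3.27% of all genes and 1 of the 10 enterocyte markers. The part of enterocyte content in these differences was not tested. Mgll had the order among I-KO mice but not among controls, and Plin2, Plin4, Pnpla2 and Hilpda did not have it.

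**Figure D5:**
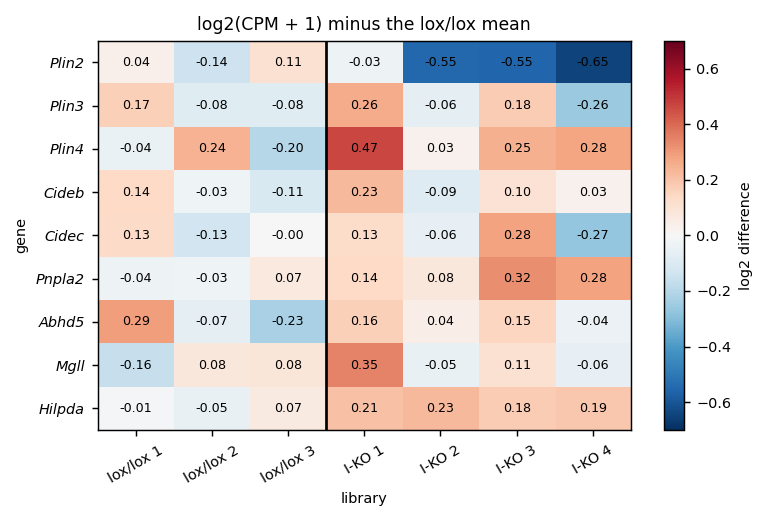
Log2(CPM + 1) of each gene (rows) in each library (columns) minus the mean of the 3 lox/lox libraries, with the value printed in each cell and blue for lower, red for higher. The Plin2 row is blue in I-KO 2, 3 and 4 (-0.55 to -0.65) and near 0 in I-KO 1 (-0.034).

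Other genes of droplet assembly and coats were taken from a list of 22, of which 19 could be tested. None were called higher and 2 lower at an unadjusted p of 0.05 by limma, against 2.32% and 2.42% of all genes. The list's median log2 fold change was 0.003, beside 0.0017 over all genes tested. Fitm2 (FIT2), an enzyme of the endoplasmic reticulum needed for droplets to bud, had 9.97, 7.68 and 10.4 CPM in controls and 6.94, 6.84, 5.61 and 6.66 CPM in I-KO mice. All its I-KO values were below all controls, where 3.28% of all genes were lower without overlap, and limma gave -0.46 on the log2 scale with a standard error of 0.12 (adjusted p = 0.79, 0.596 to 0.9993 over the alternatives). Hsd17b11, a short-chain dehydrogenase that binds droplets, had 387, 392 and 459 CPM in controls and 289, 256, 345 and 322 CPM in I-KO mice. It too was lower without overlap, by -0.45 on the log2 scale (standard error 0.12, adjusted p = 0.791 from limma, 0.362 to 0.9997 over the alternatives). The adipocyte forms Plin1 and Cidea were never above 1 CPM.

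A further list held 19 other lipases, lipase regulators and fatty acid binding or oxidation genes. At an unadjusted p of 0.05 by limma 0 were called higher and 3 lower, against 2.32% and 2.42% of all genes. The list's median log2 fold change was -0.097, beside 0.0017 over all genes tested. Only Abhd6 of the 3 called genes is a lipase, an enzyme of monoacylglycerol on membranes. It had 107, 99.1 and 104 CPM in controls and 63.7, 70.7, 75.2 and 71.5 CPM in I-KO mice. The log2 fold change was -0.55 (standard error 0.09), with an adjusted p of 0.134 from limma (0.0478 to 0.665 over the alternatives) and an exact two-sided permutation p of 0.0286. The other 2 were Cpt1a, the carnitine palmitoyltransferase of the outer mitochondrial membrane, at -0.72 (adjusted p = 0.134 from limma, 0.0478 to 0.632 over the alternatives), and Fabp1, the liver-type fatty acid binding protein, at -0.57 (adjusted p = 0.822 from limma, 0.338 to 0.9997 over the alternatives). Both are known PPARα targets. Named here for its role after its values were seen, Lipe, the hormone-sensitive lipase, had a mean of 152 CPM in controls and 150.3 CPM in I-KO mice (log2 fold change -0.027, 95% confidence interval -0.31 to 0.26, adjusted p = 0.991 from limma). It overlaps an antisense gene that is also in the table.

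Of 14 genes of triglyceride synthesis, which supply the lipid of the droplets, limma called 0 whether p was adjusted or not, at 0.05, and their median log2 fold change was 0.048. Over all genes tested 2.32% were called higher and 2.42% lower at an unadjusted p of 0.05, with a median of 0.0017. Of 14 genes of the hypoxia response, tested because hypoxia induces Hilpda, 1 was called higher and 0 lower at an unadjusted p of 0.05, with a median of 0.041. That gene was Ankrd37, at 19.9, 13.2 and 12.9 CPM in controls and 24.2, 22.7, 26.1 and 15.5 CPM in I-KO mice, with overlap between the groups (adjusted p = 0.954 from limma, 0.506 to 0.9997 over the alternatives).

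The genes nearest in pattern to Plin2 and Pnpla2 were found by the root mean square difference of centred log2 values over the 7 libraries. Fabp1 was the third nearest to Plin2 (0.12), after Gfod2 and Shank1 (0.105 each), where the median gene differed by 0.324. Like Plin2, Fabp1 was higher in I-KO 1 (3215 CPM) than in the other I-KO libraries (2109 to 2544 CPM). The choice of the nearest genes over these same 7 libraries favours such a match, so it is no separate result. Lrrc16b and Ccdc176, both below 2 CPM, completed the 5. For Pnpla2 the 5 were Tpcn2, Rapgef4, Nipal3, Rabep2 and Nrde2 (0.0376 to 0.0428, median gene 0.188).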

How the data were processed

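RNA of 7 duodena was sequenced as stranded mRNA libraries with 100 base single reads. According to the submitters' processing notes the authors used FastQC 0.11.2, TopHat2 2.0.13, Picard 1.80, HTSeq 0.6.1, edgeR and mm10. The authors deposited signal values, counts per gene scaled to an adjusted library size (CPM) with 2 decimals. Column totals lay between 969589 and 1098618. The strand setting and annotation release are not given in the sources used here. Of the file, 1 line without a gene name was dropped. The value of 1 read was found from the steps of low values. All low values lay on such a step within the rounding of 0.005, and read numbers from the steps were used for depth and counting error. Count models were left out because in 5 libraries under 95% of low values lay within 0.1 of a step, the limit used here. In these libraries a step was 0.0393 to 0.0479 CPM, so the rounding alone can carry a whole read past that limit. The limit thus cannot tell whether whole reads could be recovered.

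Genes above 1 CPM in at least 3 libraries entered a limma model (version 3.58.1, R 4.3.3) of log2(CPM + 1) with a single term for genotype. P-values are two-sided, with Benjamini-Hochberg adjustment over all genes tested and a threshold of 0.05, and the fit was tested on simulated data. Log2(CPM + 1) understates the change of low genes. An exact permutation test was added for single genes. The members, the lists and the rule for named genes (all members, Ppara, list genes by p, and the 5 nearest genes) were chosen with earlier results of these data known. The nearest genes of Hilpda are not reported here. Intervals of read numbers cover counting error only. Other settings tried were scaling by column totals or by median-of-ratios size factors, filters (none, or a mean CPM above 5), a pseudocount of 0.5, an intensity trend with or without a robust fit, sample quality weights, a block for the replicate number, and leaving out each library. Marker lists of muscle, endothelium, macrophages, adipocytes, enterocytes and pancreatic acini were checked. Tables were handled in Python 3.11.15 (pandas 2.3.3) and plotted with matplotlib 3.10.9.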

Additional observations from a re-analysis of the deposited data

Results flagged for a closer look

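A library far from the rest of its group was looked for in the 4 I-KO libraries, over the 9 members, 10 named genes of the lists and 11 list sums. Chance gives about 1 in 20, and 2 of the 30 were found. Plin2 was 106 CPM in I-KO 1 against 68.6 to 73.7 CPM in the others, and the gap to its neighbour took up 0.862 of the I-KO range, above Dixon's 95% limit for 4 samples. The acinar genes summed to 435 CPM in I-KO 1 against at most 42.7 CPM in the other I-KO libraries, with a gap of 0.962 of the I-KO range. Both stand in the same library, and a link between them was not tested.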

How the results depend on the processing

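Over 16 alternative fits no member passed an adjusted p of 0.05 by limma (smallest 0.313), and Plin2, Plin4, Cideb, Pnpla2 and Hilpda kept their sign. The sign turned for Plin3 (-0.0085) and Cidec (-0.016) with column totals, and with 1 library left out for Plin3 (-0.048 to 0.125), Cidec (-0.066 to 0.12), Abhd5 (-0.033 to 0.23) and Mgll (-0.0015 to 0.13). With column totals the median log2 fold change over all genes tested was -0.0325, beside 0.0017 with the values as deposited. The count of 3 members at an unadjusted p of 0.05 was 1 with column totals, 1 with the replicate number as a block, and 1 to 3 with 1 library left out. The count of 4 genes called over the whole table was 9 with the trend and robust fit, 12 with sample quality weights and 635 at an unadjusted p, a looser threshold. The 9 list genes at an unadjusted p became 15 with the replicate block. The cause of these changes was not tested. Replicate numbers 1 to 3 are shared by the groups. Deviations of same-numbered libraries from their group means correlated at -0.014, 0.184 and -0.0092 across 13399 genes. Those of libraries with unlike numbers correlated at -0.355 to 0.283. With so few libraries these values do not tell whether the numbers pair the mice. With the block, 1016 genes had an unadjusted p under 0.05 by limma against 635. Number 4 is held by I-KO alone, so with the block I-KO 4 added nothing to the genotype estimate. The log2 fold change of Plin2 was -0.378 both with the block and without I-KO 4. Without I-KO 4, 913 genes had an unadjusted p under 0.05. Abhd6 and Cpt1a passed an adjusted p of 0.05 with the trend and robust fit (0.0478 each by limma), and Cpt1a with sample quality weights (0.0487). Hilpda did not pass the filter of a mean above 5. The planned count models were not run: all low values lay on a whole-read step within the rounding, but in 5 libraries under 95% lay within 0.1 of a step, the limit used here. The rounding alone can carry a whole read past that limit in these libraries. How the results would stand under count models was not tested. At 38 to 61 reads, Hilpda was limited by counting error, and the other members by the spread between mice.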
